A study of Homo sapiens with 4 samples.

Results

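The insulin-like growth factor (IGF) axis was followed through 10 genes, namely the receptors *IGF1R* and *IGF2R*, the ligand *IGF2*, and the IGF-binding proteins *IGFBP1*, *IGFBP2*, *IGFBP3*, *IGFBP4*, *IGFBP5*, *IGFBP6*, and *IGFBP7*. They were chosen by name from the table of read counts, in which all 10 were found among 18449 gene symbols, and all 10 were among the 18066 genes tested. The libraries came from BT-16 and CHLA-266, established cell lines of atypical teratoid/rhabdoid tumors (AT/RT) of the MYC subtype, each sequenced once untreated and once after chemotherapy. Treated cells had received doxorubicin (doxo) at 1 µM, then etoposide (eto) at 5 µM and vincristine (vin) at 1 µM, at intervals of 24 h, and were harvested when surviving cells had grown back after about 35 days. Doxo and eto block topoisomerase II, and vin blocks the assembly of microtubules. Each condition thus held 2 libraries, 1 from each cell line, and nothing in the labels describes a second culture of a cell line, so the spread within a condition is the difference between 2 cell lines. Cells of both conditions were kept in a medium with 20% fetal bovine serum and 5 µg/mL insulin, so ligands of this axis were supplied from outside in all 4 libraries. As cultured lines they are models without the liver and stroma that make most IGFs and binding proteins of the body.

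IGF1R is a receptor tyrosine kinase that binds IGF1 and IGF2 and signals through IRS adaptors to PI3K and AKT. IGF2R, also known as the cation-independent mannose 6-phosphate receptor, has no kinase, removes IGF2 from the cell surface for degradation, and carries newly made lysosomal enzymes to their organelle. The IGF-binding proteins are secreted, hold IGFs outside the cell and either prolong their life or keep them from the receptor, until proteases such as the pappalysins release the ligand.

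Total counts lay between 49849258 and 75087194 per library, with the smaller library from treated cells in both cell lines, while more genes were detected there. The defining genes of the tumor were read in all libraries, with 6804 to 14275 counts of *MYC* and 827 to 1394 counts of *SMARCB1*, the gene whose protein is lost in most AT/RT. RNA counts do not report that protein. Reads of olfactory receptors, which belong to sensory neurons of the nose and serve here as genes that these cells should not use, were more frequent after treatment. Their summed level in BT-16 was 7.10 before and 94.1 after treatment, in CPM (counts scaled to the size of the library), and in CHLA-266 it was 8.37 before and 68.8 CPM after. For each library, the 95th percentile of 380 olfactory receptor genes, per kb of exon, was therefore set beside the levels of the IGF axis. Levels are given in CPM after TMM normalization, which corrects the library totals, and are compared between genes only per kb of exon (GENCODE 44, hg38).

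*IGF2R*, *IGF1R*, *IGFBP3*, and *IGFBP2* were the genes of this axis that lay above the olfactory receptor percentile in all 4 libraries. *IGFBP7* lay above it in 3 libraries and below it in treated CHLA-266 cells, where its level was 0.299 against 0.409 CPM per kb. *IGF2*, *IGFBP1*, *IGFBP4*, *IGFBP5*, and *IGFBP6* lay below it in every library, with at most 104 counts. Per kb of exon, *IGF2R* ranked first in all libraries, with 21.5 CPM per kb before and 52.6 after treatment in BT-16, and 26.9 before and 69.6 after treatment in CHLA-266. These levels placed *IGF2R* at the 88.3rd to 98.1st percentile of all genes of a library. *IGF1R* lay at the 73.5th to 92.5th percentile and *IGFBP3* at the 59.2nd to 93.2nd. The next places differed between libraries. In untreated BT-16 cells *IGFBP2* (10.5 CPM per kb) and *IGF1R* (8.62) came before *IGFBP3* (5.83), whereas in both treated libraries *IGFBP3* (23.2 and 26.4) and *IGF1R* (20.6 and 24.4) lay close together and far above *IGFBP2* (3.57 and 0.803). The order depends on the lengths, which here are those of the exons of all annotated transcripts. With the length of the MANE Select transcript instead, *IGFBP2* came first in untreated BT-16 cells, at 35.1 against 34.6 CPM per kb for *IGF2R*. With 1 library per cell line and condition, neighbors in this order have no replicate spread of their own and were not tested.

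**Figure D1:**
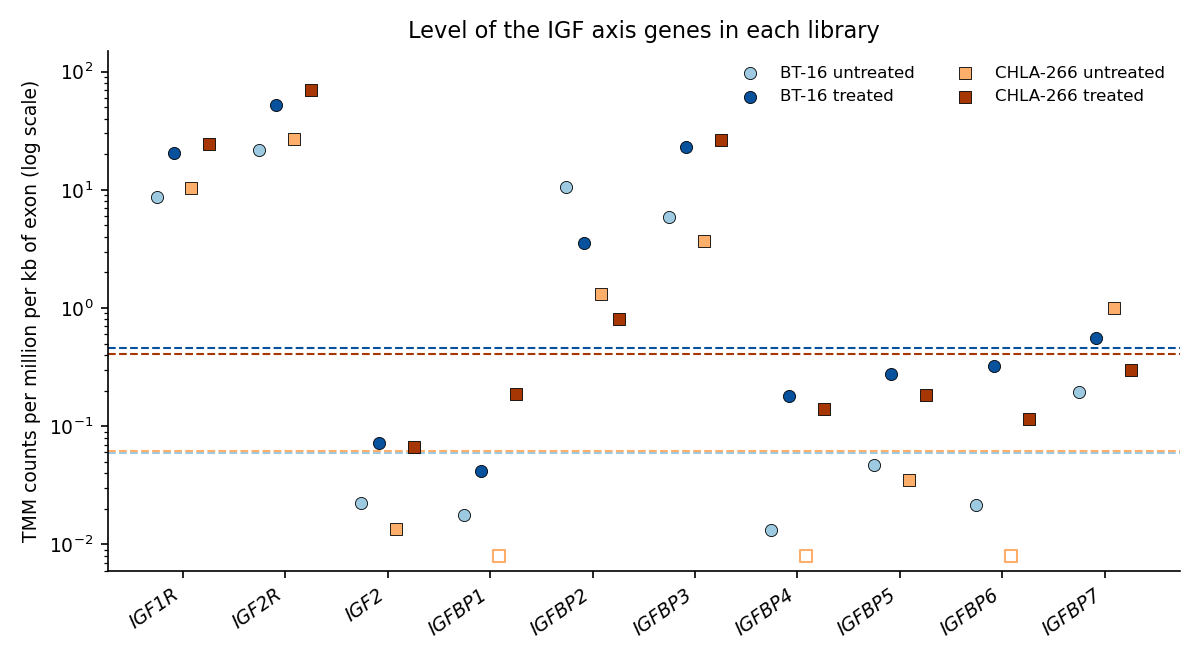
Level of each gene of the IGF axis in the 4 libraries, in TMM-normalized CPM per kb of exon on a log scale. Circles are BT-16 and squares CHLA-266, light for untreated and dark for treated, open symbols at the bottom are genes with 0 counts, and dashed lines in the color of each library mark the 95th percentile of olfactory receptor genes (0.0595 and 0.455 in BT-16, 0.0618 and 0.409 in CHLA-266). *IGF1R*, *IGF2R*, *IGFBP2*, and *IGFBP3* lie above these lines in all libraries, and *IGFBP5* in none when set against the line of its own library.

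The first comparison asked which genes of the axis differed between treated and untreated cells. In the quasi-likelihood test of edgeR, with a threshold of 0.05 on the adjusted *p*, 4 of the 10 genes were upregulated, namely *IGF1R*, *IGF2R*, *IGFBP3*, and *IGFBP5*, while over all genes 16.1% were upregulated. In edgeR, 0 of the 10 were downregulated, where 19.1% of all genes were. Without the cell line in the model, no gene of the axis had a lower level at an unadjusted *p* under 0.05 in edgeR. DESeq2 without the cell line also called 0 lower. With the cell line as a block, 3 were upregulated (*IGF1R*, *IGF2R*, *IGFBP3*) and 1, *IGFBP2*, was downregulated, against 17.9% and 23.7% of all genes and 41.6% in either direction. In 8 of the 10 genes both treated libraries lay above both untreated ones, as they did for 40.2% of all genes, in 0 both lay below, as for 32.3% of all genes, and in *IGFBP2* and *IGFBP7* the conditions overlapped. Over the 10 genes, the log2 fold change had a median of 2.16, and the median of all genes was 0.24. It was 1.99 with *IGFBP1*, *IGFBP4*, and *IGFBP6*, each with at most 3 counts per untreated library, placed at their lower bounds. *IGF2*, *IGFBP1*, *IGFBP4*, *IGFBP5*, and *IGFBP6*, all among the 8 genes without overlap, lay under the olfactory receptor percentile in every library. Above it in all libraries, *IGF1R*, *IGF2R*, *IGFBP3*, and *IGFBP2* had log2 fold changes of 1.24, 1.34, 2.37, and -1.43. The part of low-level reads in the median was not tested. With another normalization, the upper quartile, the median of all genes was 0.59, and the fold changes of single genes shifted with it. The smallest two-sided *p* of an exact permutation test of 2 against 2 libraries is 0.333, and the calls therefore depend on a variance that edgeR shares across genes. In bulk RNA of cultures, fewer cells of a type and less RNA per cell cannot be told apart.

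*IGF1R* and *IGF2R*, the receptors, were upregulated, with log2 ratios between 1.23 and 1.37 in either cell line. *IGF1R* (ENSG00000140443, chromosome 15, 98648539 to 98964530, plus strand) had 8292 counts before and 16592 after treatment in BT-16 and 8947 before and 17705 after treatment in CHLA-266. After normalization these were 120.2 and 287 CPM in BT-16 and 145 and 341 CPM in CHLA-266. Both treated libraries lay above both untreated ones, and the cell lines differed less than the conditions did. Its log2 fold change was 1.24 (standard error, SE, 0.18, edgeR adjusted *p* = 0.00139), and it was called under each of 11 alternatives, with adjusted *p* values of at most 0.00458. Within the cell lines the log2 ratios were 1.26 in BT-16 (95% interval of the counts 1.22 to 1.29) and 1.23 in CHLA-266 (1.19 to 1.27). The intervals, which cover counting error alone, overlap.

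*IGF2R* (ENSG00000197081, chromosome 6, 159969082 to 160113507, plus strand) had 33576 counts before and 68800 after treatment in BT-16 and 37430 before and 81782 after treatment in CHLA-266. These were the most reads of any gene of the axis, and the conditions did not overlap. The log2 fold change was 1.34 (SE 0.21, edgeR adjusted *p* = 0.00192), with log2 ratios of 1.29 (1.27 to 1.31) in BT-16 and 1.37 (1.35 to 1.39) in CHLA-266. The ratio of *IGF2R* to *IGF1R* per kb of exon was 2.50 before and 2.56 after treatment in BT-16 and 2.58 before and 2.85 after in CHLA-266. Over the 4 libraries, *IGF1R* and *IGF2R* were the closest pair among the 10 genes, with a root mean square distance of 0.07 between their mean-centered log2 CPM. The next closest pair, *IGFBP3* and *IGFBP5*, was 0.29 apart. These distances describe 4 libraries and were not tested. A small count was added before the logarithm, which shrinks differences of genes with low counts such as *IGFBP5*. Leaving out any one library, the log2 fold change was 1.11 to 1.38 for *IGF1R* and 1.13 to 1.52 for *IGF2R*, and both stayed below the threshold of 0.05. Of the exons of *IGF2R*, 571 bases overlap the processed pseudogene *CHP1P2* on the same strand, and the exons of *IGF1R* overlap no other gene.

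The promoters of both receptors are printed because these genes moved together, as 300 bases from 250 before to 50 after the RefSeq start (GRCh38.p14). The window of *IGF1R* is chr15:98648289-98648588 (plus strand) and that of *IGF2R* is chr6:159968832-159969131 (plus strand). Sequences read 5′ to 3′ along the gene, and capitals mark the motifs found in them.
IGF1R: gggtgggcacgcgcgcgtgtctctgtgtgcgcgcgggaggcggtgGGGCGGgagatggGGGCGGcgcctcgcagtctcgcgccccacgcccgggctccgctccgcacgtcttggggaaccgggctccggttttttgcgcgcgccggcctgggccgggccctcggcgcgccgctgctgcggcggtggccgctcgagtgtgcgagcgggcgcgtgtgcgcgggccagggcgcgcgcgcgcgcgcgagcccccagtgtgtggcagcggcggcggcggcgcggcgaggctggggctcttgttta
IGF2R: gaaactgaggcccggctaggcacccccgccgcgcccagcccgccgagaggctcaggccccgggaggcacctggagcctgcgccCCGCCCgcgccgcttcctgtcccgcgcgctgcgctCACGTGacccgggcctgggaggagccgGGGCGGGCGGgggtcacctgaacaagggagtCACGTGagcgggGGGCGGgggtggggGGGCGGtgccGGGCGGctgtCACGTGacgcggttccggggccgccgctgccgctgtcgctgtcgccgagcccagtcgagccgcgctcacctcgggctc
Both windows are rich in G and C, with 79.7% and 78.7% against a median of 58.7% over 35114 promoters of this length. Capitals in *IGF1R* are 2 GC boxes (GGGCGG or its reverse complement CCGCCC). Capitals in *IGF2R* are 6 GC boxes, 2 of which overlap, and 3 copies of CACGTG, the palindromic E-box that MYC and MAX can bind. A GC box stood in 6 of the 7 promoters of the axis that were found in the RefSeq table and in 45% of all promoters, and CACGTG in 1 of the 7 and in 7.26% of all. A match of letters is a description and no measured binding. Further motifs were searched on both strands. The TATA box TATAAA stood in *IGFBP4* alone (11.5% of all promoters) and the FOXO motif GTAAACA in *IGFBP6* alone (3.42%). The letters CCAAT (34.6%) and the AP-1 motif TGAGTCA (4.95%) stood in none of the 7. *IGF2*, *IGFBP1*, and *IGFBP7* were not matched.

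*IGF2*, the fetal growth factor that binds both receptors, was close to undetected. *IGF2* (ENSG00000167244, chromosome 11, 2129112 to 2158391, minus strand) had 11 counts before and 30 after treatment in BT-16 and 6 before and 25 after treatment in CHLA-266. Treated libraries lay above untreated ones, yet all 4 levels, 0.0136 to 0.0726 CPM per kb, were under the olfactory receptor percentile of their library. The log2 fold change of 1.94 (SE 1.26) did not pass the threshold (edgeR adjusted *p* = 0.250, 0.108 to 0.411 over 10 alternatives). On the same strand, exons of *IGF2* share 1460 bases with *INS-IGF2* and 2711 with ENSG00000284779, another protein-coding gene model, and 333 with *IGF2-AS* on the opposite one. The counting is not described as using the strand, so these low counts are uncertain as to their gene. *IGF1*, the other ligand, had 2 counts before and 4 after treatment in BT-16 and 6 before and 10 after in CHLA-266, and *INS* had no reads in any library and was not tested.

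*IGFBP3*, the main carrier of IGFs in serum, had the smallest adjusted *p* value of the axis. *IGFBP3* (ENSG00000146674, chromosome 7, 45912245 to 45921874, minus strand) had 1839 counts before and 6125 after treatment in BT-16 and 1046 before and 6263 after treatment in CHLA-266. Untreated levels were 26.7 CPM in BT-16 and 17.0 CPM in CHLA-266, and the treated ones, 106 and 120.5 CPM, lay far above both. The log2 fold change was 2.37 (SE 0.23, edgeR adjusted *p* = 0.00018, at most 0.00121 under 11 alternatives). The level was 3.97-fold (3.77 to 4.19) of the untreated one in BT-16 and 7.09-fold (6.64 to 7.58) in CHLA-266. The counting intervals of these ratios do not overlap, but whether the response differed between the cell lines could not be tested with 1 library per cell line and condition. Other genes with the nearest pattern over the 4 libraries were *COL9A1*, *CLCA4*, and *HTATIP2*, at root mean square distances of 0.03 to 0.06 in mean-centered log2 CPM. All 3 had at most 30 counts in any library, and a small count added to these log2 CPM shrinks differences at low counts. Their edgeR log2 fold changes were 2.78, 4.27, and 2.92, beside 2.37 for *IGFBP3*.

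*IGFBP2*, a binding protein of fetal and neural tissue, was the gene of the axis that separated the cell lines. *IGFBP2* (ENSG00000115457, chromosome 2, 216632828 to 216664436, plus strand) had 3427 counts before and 980 after treatment in BT-16 and 384 before and 198 after treatment in CHLA-266. Treated BT-16 cells (16.9 CPM) thus still lay above untreated CHLA-266 cells (6.24 CPM), and the conditions overlapped. Without the cell line in the model, the log2 fold change after treatment was -1.43 (SE 0.87, edgeR adjusted *p* = 0.222). In a fit that blocked on the cell line it was -1.15 (SE 0.23, edgeR adjusted *p* = 0.000136), and the gene was called lower. It was called in 3 of 11 alternatives that kept all 4 libraries, those with the cell line as a block. Their adjusted *p* values were 0.000136 in edgeR, 3.1e-05 in edgeR with halved counts, and 0.00194 in DESeq2. With all 4 libraries, alternatives without the block did not call it, with adjusted *p* values of 0.189 (edgeR, halved counts) to 0.477 (DESeq2). Without the untreated BT-16 library the log2 fold change was 0.74, of the opposite sign. That fit had no term for the cell line and set treated cells of both cell lines against untreated CHLA-266 cells alone. With the treated BT-16, untreated CHLA-266, or treated CHLA-266 library left out instead, the log2 fold change was -2.87, -2.26, or -0.70. Those fits likewise had no term for the cell line. Within a cell line, the treated level was 34.1% of the untreated one in BT-16 (log2 ratio -1.55, interval -1.66 to -1.45) and 61.2% in CHLA-266 (-0.71, -0.97 to -0.46).

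The second comparison asked whether a gene differed between the cell lines, with treatment in the model. *IGFBP2* had a log2 difference of -2.58 between CHLA-266 and BT-16 cells (SE 0.24, edgeR adjusted *p* = 1.13e-08). It was the 1 gene of 10 called lower in CHLA-266, where 1.46% of all genes were, beside 0.836% higher and 2.3% in either direction. Untreated cells alone gave -2.99 and treated cells alone -2.15, both with BT-16 above. For the other 9 genes, the smallest adjusted *p* was 0.318, that of *IGF2R*. Without treatment in the model, 0 genes of the whole table were called between the cell lines in edgeR, *IGFBP2* included, while its log2 difference was -2.73.

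The promoters of *IGFBP3* and *IGFBP2* are printed as those of the binding proteins with the highest levels, whose log2 ratios had opposite signs within each cell line. They are chr7:45921223-45921522 (minus strand) for *IGFBP3* and chr2:216633170-216633469 (plus strand) for *IGFBP2*, the latter from the 1 of 3 RefSeq entries that begins at the MANE Select start. Capitals mark GC boxes.
IGFBP3: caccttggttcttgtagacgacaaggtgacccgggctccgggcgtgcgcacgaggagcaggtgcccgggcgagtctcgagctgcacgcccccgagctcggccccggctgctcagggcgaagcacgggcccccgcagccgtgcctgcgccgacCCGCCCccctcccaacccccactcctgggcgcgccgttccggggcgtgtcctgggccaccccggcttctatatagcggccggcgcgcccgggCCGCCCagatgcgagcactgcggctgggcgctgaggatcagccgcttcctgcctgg
IGFBP2: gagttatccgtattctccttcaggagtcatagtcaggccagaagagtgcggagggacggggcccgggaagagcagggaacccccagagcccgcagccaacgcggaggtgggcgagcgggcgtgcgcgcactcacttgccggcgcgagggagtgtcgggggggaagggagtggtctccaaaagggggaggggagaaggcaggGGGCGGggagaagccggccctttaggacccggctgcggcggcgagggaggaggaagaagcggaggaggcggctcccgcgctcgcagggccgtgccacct
The window of *IGFBP3* holds 2 GC boxes in 74.7% G and C, and that of *IGFBP2* holds 1 in 70%.

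**Figure D2:**
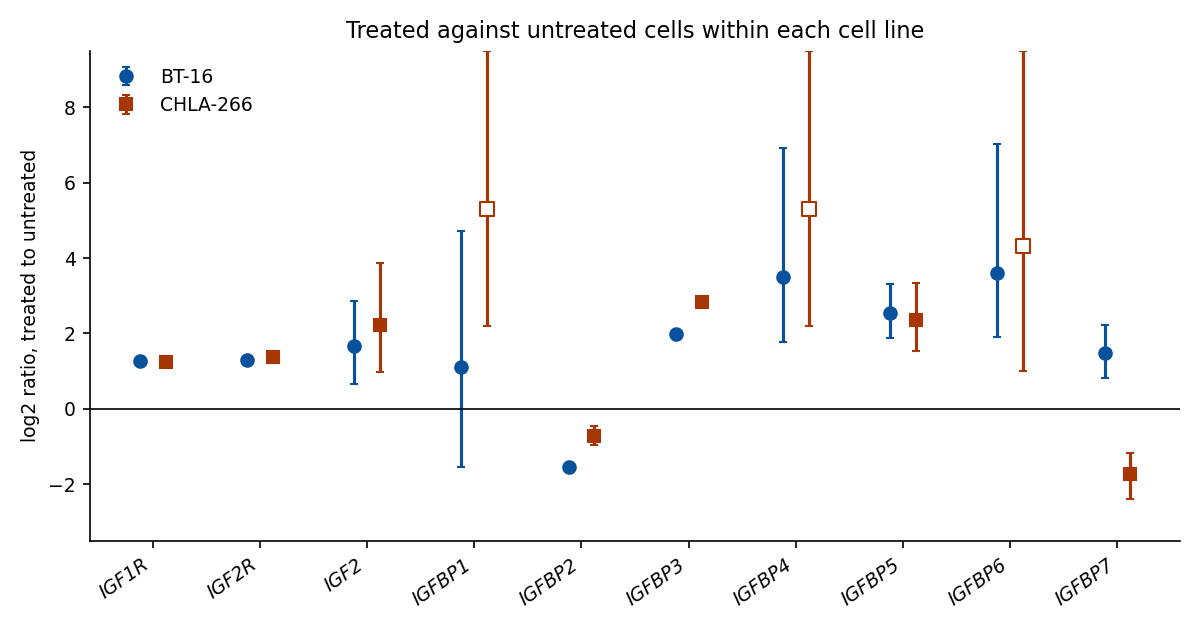
Log2 ratio of treated to untreated counts within BT-16 (circles) and CHLA-266 (squares) for each gene, after TMM normalization and with 0.5 counts added. Bars are exact 95% intervals for counting error, bars that reach the upper edge go beyond the axis, and open squares mark 0 counts in the untreated library. *IGF1R* and *IGF2R* lie between 1.23 and 1.37, *IGFBP3* at 1.99 and 2.83, *IGFBP2* below 0 in both cell lines, and *IGFBP7* on opposite sides of 0.

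*IGFBP5*, a binding protein of matrix and bone, was called higher at low counts. *IGFBP5* (ENSG00000115461, chromosome 2, 216672105 to 216695549, minus strand) had 21 counts before and 104 after treatment in BT-16 and 14 before and 62 after treatment in CHLA-266. Treated levels of 1.80 and 1.19 CPM lay above untreated ones of 0.304 and 0.227 CPM. The log2 fold change was 2.48 (SE 0.78, edgeR adjusted *p* = 0.0367). In the blocked fit of edgeR the adjusted *p* was 0.0519, and without any one of the 4 libraries it was 0.0657 to 0.188. All 4 levels lay under the olfactory receptor percentile of their library, and that percentile was itself higher in the treated library of each cell line. The part of such reads in the result was not tested. Exons of *IGFBP5* also overlap those of *DIRC3-AS1* by 487 bases on the opposite strand, so its reads are uncertain as to their gene.

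The 3 binding proteins with the fewest reads were *IGFBP1* of liver, *IGFBP4*, and *IGFBP6*, which prefers IGF2. None passed the threshold. *IGFBP4* (ENSG00000141753, chromosome 17, 40443450 to 40457725) had 2 counts before and 23 after treatment in BT-16 and 0 before and 16 after in CHLA-266 (edgeR adjusted *p* = 0.118, 0.0469 to 0.211 over 10 alternatives, of which 2 called it). *IGFBP6* (ENSG00000167779, chromosome 12, 53097436 to 53102345) had 2 counts before and 25 after treatment in BT-16 and 0 before and 8 after in CHLA-266 (edgeR adjusted *p* = 0.160). *IGFBP1* (ENSG00000146678, chromosome 7, 45888360 to 45893660) had 2 counts before and 4 after treatment in BT-16 and 0 before and 16 after in CHLA-266 (edgeR adjusted *p* = 0.280). In BT-16 the log2 ratios were 3.49 (1.76 to 6.91) for *IGFBP4*, 3.61 (1.90 to 7.02) for *IGFBP6*, and 1.10 (-1.55 to 4.72) for *IGFBP1*. Against a floor of 3 counts in the untreated library, CHLA-266 levels after treatment were at least 6.32-fold higher for *IGFBP4* and *IGFBP1* and at least 3.16-fold higher for *IGFBP6*. The floor leaves out the counting error of the treated reads, and exact 95% intervals of these ratios began at 4.57-fold and 2.02-fold. Low counts were mostly even in these libraries, which would be seen if each read of a pair was counted. Intervals and floors would then be too narrow. With counts halved, intervals of the log2 ratios in CHLA-266 began at 1.02 for *IGFBP4* and *IGFBP1*. For *IGFBP6* the halved interval began at -0.35 and so included no change.

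*IGFBP7*, which binds IGFs weakly and is known from vessels and stroma, had ratios of opposite sign in the cell lines. *IGFBP7* (ENSG00000163453, chromosome 4, 57030773 to 57110385, minus strand) had 26 counts before and 62 after treatment in BT-16 and 120 before and 30 after treatment in CHLA-266. The highest level was that of untreated CHLA-266 cells, and the conditions overlapped. Log2 ratios were 1.49 (0.83 to 2.23) in BT-16 and -1.74 (-2.38 to -1.17) in CHLA-266, and the fold change over both was -0.49 (SE 0.89, edgeR adjusted *p* = 0.674). Exons of *IGFBP7* overlap those of *POLR2B* by 260 bases and of *IGFBP7-AS1* by 94 bases, both on the opposite strand, so its reads are uncertain as to their gene.

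Set side by side per kb of exon, the transcripts of the binding proteins had a different makeup in treated cells. Their summed level was 16.6 CPM per kb before and 28.1 after treatment in BT-16, and 6.08 before and 28.1 after treatment in CHLA-266. *IGFBP2* held 63.1% of this sum in untreated BT-16 cells and 12.7% after treatment, and 21.6% and 2.86% in CHLA-266 cells. *IGFBP3* held 35.1% before and 82.4% after treatment in BT-16, and 61.2% before and 93.8% after in CHLA-266. *IGFBP3* thus had the highest RNA level per kb of the binding protein genes in 3 libraries and *IGFBP2* in untreated BT-16 cells. The ratio of *IGFBP3* to *IGFBP2* was 0.557 before and 6.49 after treatment in BT-16, and 2.83 before and 32.8 after in CHLA-266, so each cell line had the higher ratio when treated. With the lengths of MANE Select transcripts the share of *IGFBP3* was 22.3% before and 74.7% after treatment in BT-16, and 52.8% before and 92.4% after in CHLA-266. The genes of *IGFBP2* and *IGFBP5* lie on opposite strands 7668 bases apart, as do those of *IGFBP1* and *IGFBP3* at 18584 bases. *IGFBP2* lay above *IGFBP5* and *IGFBP3* above *IGFBP1* in every library.

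**Figure D3:**
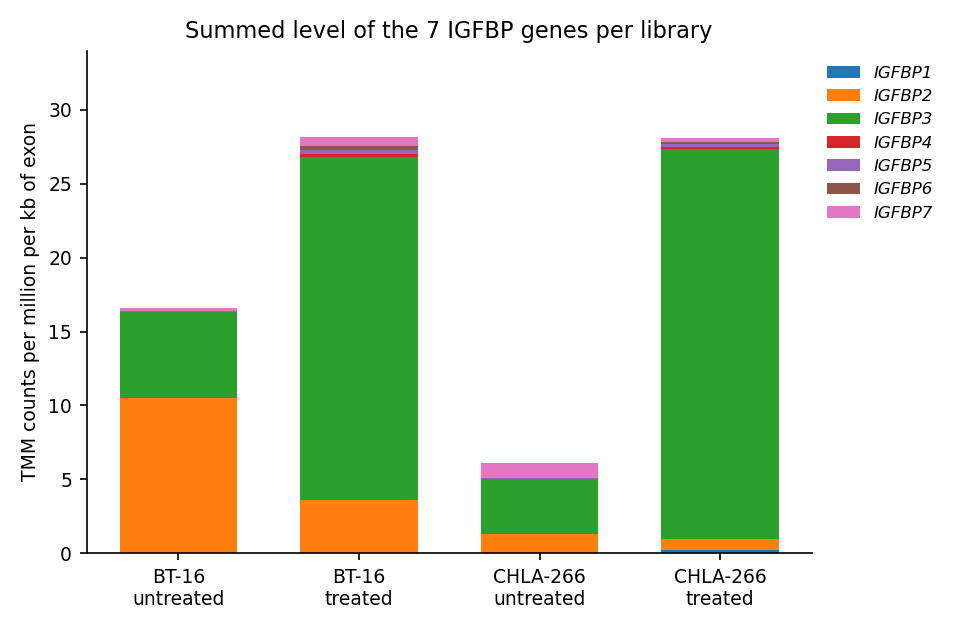
Summed level of the binding protein genes in each library, in TMM-normalized CPM per kb of exon, with each bar divided by gene. The sum is 28.1 in both treated libraries, of which *IGFBP3* (green) takes 82.4% in BT-16 and 93.8% in CHLA-266, whereas *IGFBP2* (orange) takes the largest part in untreated BT-16 cells.

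Around these genes, 9 lists of 91 further genes of the pathway were examined, of which 86 were tested. At the same threshold 22 were upregulated and 8 downregulated, against 16.1% and 19.1% of all genes. The block called 24 higher and 14 lower, against 17.9% and 23.7% of all genes. Their median log2 fold change was 0.30, beside 0.24 for all genes. Members of the lists are described in the order of the pathway.

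Among the other insulin family receptors, *INSR*, the insulin receptor, which can pair with IGF1R in hybrid receptors, had the most reads. It had 1977 counts before and 1185 after treatment in BT-16 and 2179 before and 1611 after in CHLA-266 (log2 fold change -0.32, edgeR adjusted *p* = 0.321). The ratio of *IGF1R* to *INSR* per kb of exon was 3.26 before and 10.9 after treatment in BT-16, and 3.19 before and 8.54 after in CHLA-266, so *IGF1R* exceeded *INSR* in every library and more so after treatment.

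Of 8 proteases of binding proteins and their partners, 3 were upregulated, beside 16.1% of all genes. *PAPPA2*, a pappalysin that cleaves IGFBP3 and IGFBP5, had 7 counts before and 133 after treatment in BT-16 and 1 before and 104 after in CHLA-266 (log2 fold change 5.12, edgeR adjusted *p* = 0.00452). *STC1*, a stanniocalcin that inhibits pappalysins, had 0 counts in both untreated libraries and 114 and 24 in treated BT-16 and CHLA-266 cells, at least 45.3-fold and 9.48-fold higher (edgeR adjusted *p* = 0.00714, and 0.0592 without the treated BT-16 library). *ADAM12* had 11 counts before and 97 after treatment in BT-16 and 8 before and 40 after in CHLA-266 (log2 fold change 3.06, edgeR adjusted *p* = 0.0328, 0.0529 with the block, and 0.0676 to 0.280 without either untreated library or the treated BT-16 library). *PAPPA*, the gene of the list with the highest summed CPM, had 611 counts before and 1162 after treatment in BT-16 and 730 before and 529 after in CHLA-266 (edgeR adjusted *p* = 0.240) and its ratio had opposite signs in the cell lines. *HTRA1*, a serine protease that also holds an IGFBP-like domain, had 1194 counts before and 635 after treatment in BT-16 and 797 before and 418 after in CHLA-266, slightly more in sum than *PAPPA* (log2 fold change -0.67, edgeR adjusted *p* = 0.0943, 0.0260 with the block). *PAPPA2* and *ADAM12* lay under the olfactory receptor percentile in all libraries, and *STC1* in all but treated BT-16 cells. The folds of *STC1* rest on a floor of 3 untreated counts and leave out the counting error of the treated reads. Exact 95% intervals of its log2 ratios began lower, at 5.18 in BT-16 and 2.83 in CHLA-266.

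Of 10 proteins with an IGFBP-like domain, 3 were upregulated, beside 16.1% of all genes. These 3 belong to the CCN family of matrix proteins. *CCN3* had 8 counts before and 413 after treatment in BT-16 and 6 before and 165 after in CHLA-266 (log2 fold change 5.57, edgeR adjusted *p* = 0.000542). *CCN2* had 1962 counts before and 2661 after treatment in BT-16 and 1355 before and 6410 after in CHLA-266 (1.75, edgeR adjusted *p* = 0.010). *CCN5* had 0 counts in untreated and 50 and 54 in treated BT-16 and CHLA-266 cells, at least 19.9-fold and 21.3-fold higher (edgeR adjusted *p* = 0.00712). The folds of *CCN5* likewise leave out the counting error of the treated reads. Exact 95% intervals of its log2 ratios began lower, at 3.96 in BT-16 and 4.07 in CHLA-266. *CCN3* lay above the olfactory receptor percentile in the treated libraries alone and *CCN5* in none. *CCN1* had the most reads, with 30467 to 43494 counts in all libraries (log2 fold change -0.23, edgeR adjusted *p* = 0.320). Among the proteins that bind *IGF2* mRNA, *IGF2BP2* had the most reads, with 10041 counts before and 10230 after treatment in BT-16 and 9037 before and 14345 after in CHLA-266 (0.63, edgeR adjusted *p* = 0.0508, 0.00275 with the block). The block also called *IGF2BP3* higher, with 565 counts before and 1163 after treatment in BT-16 and 117 before and 326 after in CHLA-266.

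Of 12 adaptors and regulators at the receptor, 4 were upregulated, beside 16.1% of all genes, namely *IRS1*, *GRB10*, *SHC1*, and *GAB1*. *IRS1*, a main substrate of both IGF1R and the insulin receptor, had 10 counts before and 229 after treatment in BT-16 and 12 before and 224 after in CHLA-266 (log2 fold change 4.59, edgeR adjusted *p* = 0.000731), and it lay above the olfactory receptor percentile in treated CHLA-266 cells alone. *GRB10*, which dampens signals of these receptors, had 529 counts before and 2290 after treatment in BT-16 and 578 before and 5546 after in CHLA-266 (3.10, edgeR adjusted *p* = 0.000921). *SHC1*, which links receptors to RAS, had a log2 fold change of 0.62 (edgeR adjusted *p* = 0.0292, and 0.191 without the untreated CHLA-266 library). *IRS2*, a close relative of *IRS1*, had 17049 counts before and 12944 after treatment in BT-16 and 9695 before and 10369 after in CHLA-266, and a log2 difference of 0.07 (edgeR adjusted *p* = 0.828). With the block, 4 members of this list were lower, beside 23.7% of all genes, namely *SH2B1*, *SH2B2*, *PTPN11*, and *NEDD4*. NEDD4 attaches ubiquitin to receptors. *PTPN11*, a phosphatase and the member with the most reads, had a log2 fold change of -0.42 (edgeR adjusted *p* = 0.0862, 0.0195 with the block).

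Of 22 genes of the PI3K, AKT, and mTOR cascade, 1 was upregulated and 5 were downregulated, beside 16.1% and 19.1% of all genes. The median log2 fold change of these 22 genes was -0.16, beside 0.24 for all genes. *EIF4EBP1*, a repressor of translation that mTOR inactivates, had 6004 counts before and 928 after treatment in BT-16 and 4086 before and 1011 after in CHLA-266 (-2.11, edgeR adjusted *p* = 0.00017). *AKT1* had 6993 counts before and 2532 after treatment in BT-16 and 5467 before and 1937 after in CHLA-266 (-1.23, edgeR adjusted *p* = 0.00107). *TSC1*, an inhibitor of mTOR, was the gene upregulated, with 5060 counts before and 8472 after treatment in BT-16 and 4967 before and 7967 after in CHLA-266 (0.96, edgeR adjusted *p* = 0.00244). *MTOR*, the kinase itself and the member with the most reads, had 11904 counts before and 6778 after treatment in BT-16 and 10473 before and 6220 after in CHLA-266 (-0.53, edgeR adjusted *p* = 0.0266). *AKT2* and *RHEB* had log2 fold changes of -0.75 and -0.56 and were also called lower. With upper-quartile normalization in edgeR, *AKT2*, *RHEB*, and *MTOR* lost their calls, with adjusted *p* values of 0.0618, 0.300, and 0.335.

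FOXO factors are kept out of the nucleus by AKT. Of 11 FOXO genes and genes known to respond to FOXO, 5 were upregulated, beside 16.1% of all genes. *BCL6*, a transcriptional repressor, had 253 counts before and 1154 after treatment in BT-16 and 101 before and 1554 after in CHLA-266 (log2 fold change 3.23, edgeR adjusted *p* = 0.000742). *FOXO3* had 2830 counts before and 4257 after treatment in BT-16 and 1592 before and 4150 after in CHLA-266 (1.20, edgeR adjusted *p* = 0.00488), and *FOXO1* had 74 counts before and 566 after treatment in BT-16 and 56 before and 204 after in CHLA-266 (2.79, edgeR adjusted *p* = 0.00508). *SESN3* and *PIK3IP1* rose as well. *INSR* and *IRS2*, which are also known to respond to FOXO, had log2 fold changes of -0.32 and 0.07 and were not called.

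IGF2R works in the sorting of lysosomal enzymes. Of 11 genes of that route, 3 were upregulated and 1 was downregulated, beside 16.1% and 19.1% of all genes. *GNPTG*, a subunit of the enzyme that attaches the mannose 6-phosphate tag, had 2162 counts before and 4771 after treatment in BT-16 and 1725 before and 5429 after in CHLA-266 (log2 fold change 1.66, edgeR adjusted *p* = 0.000332). *M6PR*, the smaller receptor for the same tag, had 8738 counts before and 11164 after treatment in BT-16 and 8798 before and 11305 after in CHLA-266 (0.61, edgeR adjusted *p* = 0.0213, up to 0.125 without 1 library). *GGA2*, a coat adaptor of these receptors, had 6964 counts before and 3180 after treatment in BT-16 and 6992 before and 2978 after in CHLA-266 (-0.93, edgeR adjusted *p* = 0.00289). The gene with the most reads, *VPS35* of the retromer, had a log2 fold change of -0.16 (edgeR adjusted *p* = 0.457).

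Of 9 surface partners of binding proteins, 3 were upregulated and 2 downregulated, beside 16.1% and 19.1% of all genes. *LRP1*, a receptor of IGFBP3, had 15073 counts before and 31238 after treatment in BT-16 and 10400 before and 34206 after in CHLA-266 (log2 fold change 1.63, edgeR adjusted *p* = 0.000572). *LRP6*, a co-receptor of WNT to which IGFBP4 binds, had 57503 counts before and 18784 after treatment in BT-16 and 49335 before and 18093 after in CHLA-266 (-1.28, edgeR adjusted *p* = 0.000737). *PTPRZ1*, a receptor of IGFBP2, had 76663 counts before and 22484 after treatment in BT-16 and 53324 before and 22952 after in CHLA-266 (-1.25, edgeR adjusted *p* = 0.00172). *ITGAV*, an integrin subunit and the member with the most reads, had 39507 counts before and 62442 after treatment in BT-16 and 42867 before and 84615 after in CHLA-266 (1.09, edgeR adjusted *p* = 0.00763). Among the lists that stand for other cell types, 3 of 8 hepatocyte, 2 of 8 macrophage, 3 of 6 endothelial, and 2 of 8 fibroblast and pericyte markers were upregulated, beside 16.1% of all genes. *COL1A2* of the fibroblast list was the 1 marker of these lists that was downregulated (log2 fold change -2.21, edgeR adjusted *p* = 0.00758). Their summed levels in untreated and treated cells were 0.374 to 0.768 and 5.39 to 6.18 CPM for hepatocyte markers, and 1.20 to 2.04 and 8.51 to 11.5 CPM for endothelial ones. For macrophage markers they were 3.41 to 6.45 and 6.04 to 9.41 CPM, and fibroblast and pericyte markers summed to 10.9 to 23.8 CPM over the 4 libraries, with more after treatment in each cell line. *CD68* had 0 counts in both treated libraries, *ALB* in both untreated ones, and *LUM* in both of CHLA-266. These sums moved in the direction of *IGFBP3* and *IGFBP5*, and their part in those results was not tested. Of the defining genes of the tumor, *MYC* was downregulated (log2 fold change -0.59, edgeR adjusted *p* = 0.0289, 0.00200 with the block). Its adjusted *p* values reached 0.250 over the alternatives. *SMARCB1* was not called (-0.34, edgeR adjusted *p* = 0.226).

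**Figure D4:**
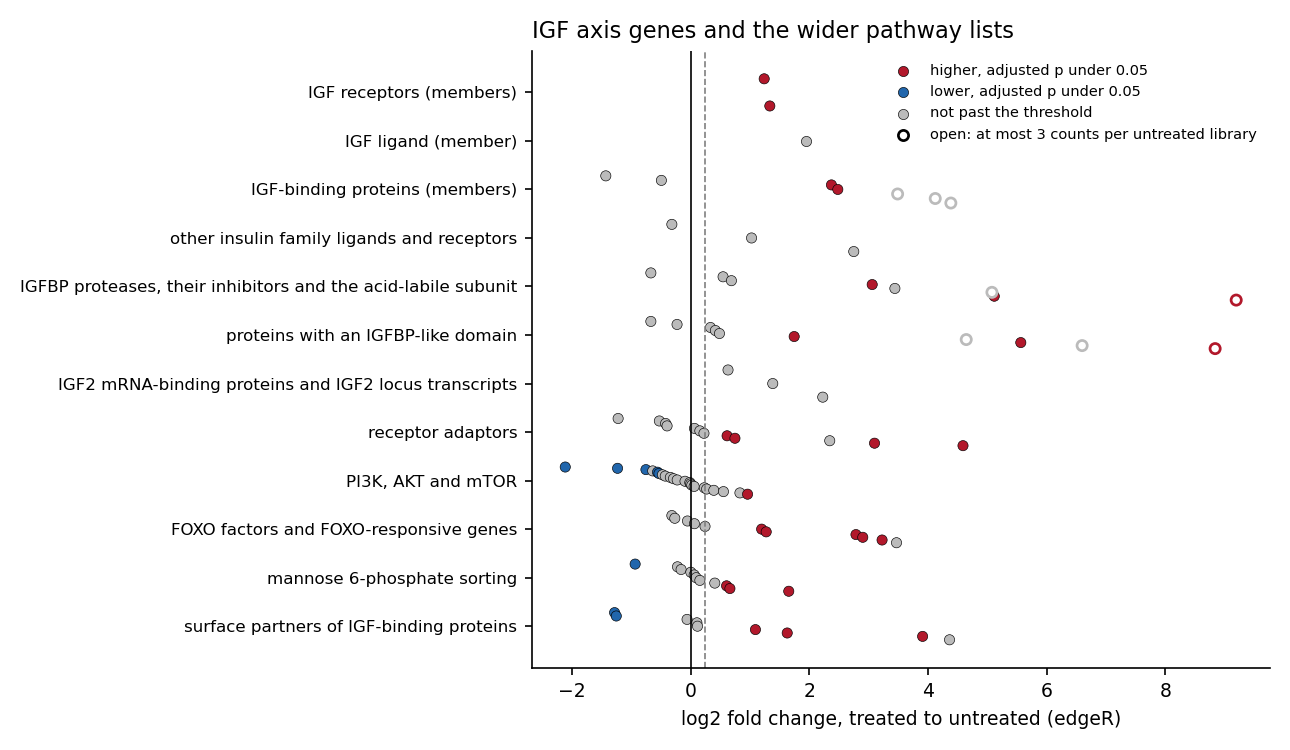
Log2 fold change after treatment (edgeR) of the genes of the axis (upper 3 lines) and of 9 lists of the wider pathway. Each point is a gene, red if upregulated and blue if downregulated at an adjusted *p* value under 0.05, open where both untreated libraries held at most 3 counts so that the fitted value is no measured fold, and the dashed line is the median of all genes (0.24). The PI3K, AKT, and mTOR list has 5 blue points and 1 red point, and the FOXO list 5 red points. Of all genes, 16.1% were upregulated and 19.1% downregulated.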

How the data were processed

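RNA of 4 libraries (2 cell lines, untreated and treated) was prepared with a stranded kit and sequenced with paired ends. Per the labels and methods, the authors aligned reads to hg38 with STAR (version not given in the sources used here) after bcl2fastq 2.20, counted them per gene, and removed genes of the sex chromosomes. The estimated counts the authors deposited are unnormalized read counts per symbol, in which 5 fractional values of 2 genes were rounded. A table of log2 values the authors deposited is a variance-stabilizing transformation (VST) of those counts for 17553 genes, used in the alternative with limma alone. Whether counting used the strand is not given in the sources used here.

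Of 18449 symbols, 18066 had reads and were tested with edgeR 4.0.16 (quasi-likelihood test, TMM, Benjamini-Hochberg adjustment, R 4.3.3) for treated against untreated libraries without the cell line, since the methods of the study name no covariate, and for CHLA-266 against BT-16 with treatment in the model. The untreated and treated libraries of a cell line are paired by that line, and their deviations from the mean of each condition correlated with r = 0.263 over 12620 genes. Log2 ratios within a cell line used 0.5 added counts and exact Clopper-Pearson 95% intervals. Alternatives were a block on the cell line, DESeq2 1.42.0 (blocked or not), DESeq2 size factors, upper-quartile normalization, library totals, a minimum of 10 counts per library, edgeR's own filter, limma 3.58.1 on VST values, an absolute log2 fold change of at least 1, and each library left out. A fit on halved counts was added once the data had been seen. The tests were tested on simulated counts.

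All 10 genes of the axis are named. From each list of the wider pathway, the text names up to 3 called genes of smallest adjusted *p* whose direction was shared by the cell lines and the gene with the highest summed CPM, and others only where they complete a count, were called under another model, or belong to a ratio with a named gene. *IGF1*, *INS*, *CD68*, *ALB*, and *LUM* are shown for their role. The genes and lists were chosen with earlier results of these data known. Promoters came from RefSeq, in which 7 of the 10 genes were matched.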

Additional observations from a re-analysis of the deposited data

Results flagged for a closer look

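*IGFBP7* stood out because the log2 ratio between treated and untreated cells was 1.49 in one cell line (BT-16) and -1.74 in the other (CHLA-266). Each cell line had 1 library per condition, so the difference between the cell lines was not tested. Both ratios rest on 26 to 120 counts per library.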

How the results depend on the processing

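*IGF1R*, *IGF2R*, and *IGFBP3* kept their direction and their side of the threshold under every alternative that was run. Over the settings with all 4 libraries in count-based tests, the log2 fold change was 1.24 to 1.58 for *IGF1R*, 1.33 to 1.68 for *IGF2R*, and 2.37 to 2.72 for *IGFBP3*, with the highest values under upper-quartile normalization. *IGFBP5* lost its call when the cell line was blocked in edgeR and in DESeq2 (adjusted *p* = 0.0519 and 0.0528), and without any one library, and was called with halved counts and the block (edgeR adjusted *p* = 0.0362). With the block its log2 fold change was 2.47, 2.55, and 2.52 in these fits, beside 2.48. The number of genes of the axis called lower was 1 in place of 0 with the replicate block, in DESeq2 with that block, and with halved counts and the block, and 0 to 1 when libraries were left out. That gene, *IGFBP2*, had log2 fold changes of -2.87 to 0.74 when libraries were left out, with 0.74 without the untreated BT-16 library, and *IGFBP7* of -1.24 to 1.13, with 1.13 without the untreated CHLA-266 library. Within BT-16 and CHLA-266 the log2 ratios of *IGFBP2* were -1.55 and -0.71. Fits with a library left out had no term for the cell line and set 2 cell lines against 1. They thus mix cell line and treatment, and the part of each was not tested. Between the cell lines, the log2 difference of *IGFBP1* was -0.70 in DESeq2 in place of 0.27, and that of *IGFBP3* was 0.052 without the treatment term in place of -0.22.

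In the wider lists, 14 genes in place of 8 were lower with the block, 13 with halved counts and the block, 5 with upper-quartile normalization, and 4 at an absolute log2 fold change of at least 1. Over all genes, 4288 in place of 3454 were lower after treatment with the block. With upper-quartile normalization 1895 of all genes were lower, where 4361 in place of 2910 were higher. At an absolute log2 fold change of at least 1, 1721 were lower. Of all genes, 151 were higher in CHLA-266, which became 0 without the treatment term, 272 with DESeq2 size factors, 239 with upper-quartile normalization, 45 with at least 10 counts in every library, 54 with the filter of edgeR, and 56 at the fold threshold. The 264 genes lower in CHLA-266 became 0, 408, 477 with library totals, 85, 107, 147 at the fold threshold, and 163 in DESeq2. Genes of the axis lower in CHLA-266 numbered 0 in place of 1 without the treatment term. Leaving out a library left the comparison of cell lines without residual degrees of freedom, so that it gave values and no test. Counts of at most 30 per library lie behind *IGF2*, *IGFBP1*, *IGFBP4*, and *IGFBP6* and leave their intervals wide. Of these, *IGFBP4* was called with the filter of edgeR and in limma (adjusted *p* = 0.0486 and 0.0469).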
